A study of Mus musculus with 16 samples.

Results

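Selenoproteins are enzymes and carriers that hold selenium as the amino acid selenocysteine, and the 10 genes described here encode selenoproteins of the secreted, endoplasmic reticulum and cytosolic kinds, including 4 glutathione peroxidases. They were chosen by name (Selenom, Selenop, Selenof, Selenow, Selenok, Gpx1, Gpx2, Gpx3, Gpx4 and Txnrd1) among the 41740 genes listed for each library, and all 10 passed the filter on low counts that left 15267 genes. The choice was made with the values of the insulin comparison in view, above all the low Selenom of the insulin-treated mice. Differences of the 10 genes from Control-STAM-nonINS are therefore given as a description, with no test.

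The ileal whole wall of 16 male C57BL/6J mice gave the total RNA for sequencing at 20 weeks of age. All were STAM mice, which received streptozotocin at 2 days of age to damage the beta cells and a high-fat diet from 4 weeks to produce diabetes with fatty liver disease. All carried floxed insulin receptor alleles (InsR-flox). Control-STAM-nonINS mice (n = 4) lacked Villin-Cre and received saline without insulin, Control-STAM-INS mice (n = 6) lacked Villin-Cre and received the long-acting insulin degludec from 6 weeks of age (at most 12 U/kg, 2 injections a day), and ieIRKO-STAM-INS mice (n = 6) carried Villin-Cre, which deletes floxed alleles in the intestinal epithelium, and received the same insulin. The samples are labelled as biological replicates, and between 13288018 and 22215382 reads were counted on genes per library. Insr, the gene to be deleted, had a mean of 105 CPM (read counts scaled to library size and expressed per 1e6) in Control-STAM-nonINS, 62.7 CPM in Control-STAM-INS and 67.2 CPM in the libraries labelled ieIRKO-STAM-INS. It was thus not lower in these than in Control-STAM-INS, in RNA of a whole wall that also holds cells outside the epithelium. The summed B and plasma cell markers Cd79a, Cd79b, Ms4a1 and Mzb1 stood at 296 and 194 CPM in ieIRKO-STAM-INS replicates 2 and 3. In the other 14 libraries they stood between 22.5 and 83.5 CPM, so the calls of the genotype comparison are also given without replicates 2 and 3. Pairs of libraries within a group were also compared by chi-square per degree of freedom of their counts, a measure of distance. It was 68.7 to 79.0 between Control-STAM-nonINS replicate 4 and the rest of its group, and 17.2 to 35.2 within that rest. For ieIRKO-STAM-INS replicate 5 it was 44.5 to 118.7, and 20.2 to 58.1 among the others of its group. Both libraries were kept in the reported fits.

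In a selenoprotein mRNA, a UGA codon inside the reading frame is read as selenocysteine instead of stop, with the help of a hairpin in the untranslated end of the mRNA, a dedicated tRNA and its own elongation factor. The selenium atom usually sits in the active site, where it reduces peroxides or disulfides with electrons from glutathione or thioredoxin. The gut wall is known for Gpx2, an epithelial glutathione peroxidase, while Selenop is secreted mostly by the liver and carries selenium to other tissues. When selenium is short, cells keep some selenoproteins at the expense of others, and part of this ranking acts on mRNA stability.

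The coding bases around the selenocysteine codon are shown because that codon is what the 10 genes share and what sets them apart from other redox enzymes. Each line gives 12 coding bases on either side, or up to the stop codon, 5′ to 3′ on the coding strand, from the GENCODE M21 annotation of GRCm38, with the selenocysteine codon TGA in capitals.
Selenom (codon 48 of 145): acctgtggaggaTGAcagttgaatcgc
Selenow (codon 13 of 88): tattgtggagctTGAggctataagccc
Selenof (codon 93 of 162): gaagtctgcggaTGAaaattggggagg
Selenok (codon 92 of 94): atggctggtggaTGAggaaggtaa
Gpx1 (codon 47 of 201): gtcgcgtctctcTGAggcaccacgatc
Gpx2 (codon 40 of 190): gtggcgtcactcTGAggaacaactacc
Gpx3 (codon 73 of 226): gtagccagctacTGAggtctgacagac
Gpx4 (codon 73 of 197): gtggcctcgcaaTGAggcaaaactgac
Txnrd1 (codon 498 of 499): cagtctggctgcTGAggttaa
Selenop (codon 59 of 380, the first of 10): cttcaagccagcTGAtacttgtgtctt

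The position of the codon differed between the members. It lay early in Selenow, well inside the coding sequence of Selenom, Selenof and the 4 glutathione peroxidases, and next to the end in Txnrd1, where 1 codon followed it before the stop, and in Selenok, where 2 followed. Selenom and Selenow shared a cysteine codon (TGT) 3 codons before the TGA, the spacing of the redox pair in thioredoxin-like proteins, as did Selenoh, Selenot, Selenoo and Selenov among the 24 genes with an annotated selenocysteine codon. Selenop alone held 10 such codons, and the other 9 members held 1 each.

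Selenop mRNA stood far above the rest of the family. Per exon length, its level averaged 1353 RPKM (CPM per kilobase of exon) over the 16 libraries and ranked 34 among 15115 genes. Selenow (149 RPKM), Gpx1 (146 RPKM), Gpx4 (129 RPKM) and Gpx2 (125 RPKM) followed, and their order did not hold beyond the spread between libraries. Selenom (53.1 RPKM), Txnrd1 (41.4 RPKM), Gpx3 (39.95 RPKM) and Selenok (37.1 RPKM) followed over the 16 libraries, in an order that was likewise within the spread, and Selenof was lowest at 28.1 RPKM, below Selenok in 16 of 16 libraries. Between neighbours in the order of the 10, Selenop was above Selenow in 16 of 16 libraries and Gpx2 above Selenom in 14 of 16. The place of Selenom differed between the groups. Its level averaged 93.3 RPKM in Control-STAM-nonINS, beside 85.7 RPKM for Gpx2 and 38.1 RPKM for Txnrd1. In Control-STAM-INS it averaged 40.8 RPKM, beside 139.7 RPKM for Gpx2 and 45.3 RPKM for Txnrd1. The order depends on the length used. With the length of the coding transcript shown above instead of all annotated exons, which was tried after the data were seen, Gpx2 moved to rank 2 of the 10, Selenow to rank 5 and Selenof to rank 7, while Selenop kept rank 1 and Selenom rank 6.

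**Figure D1:**
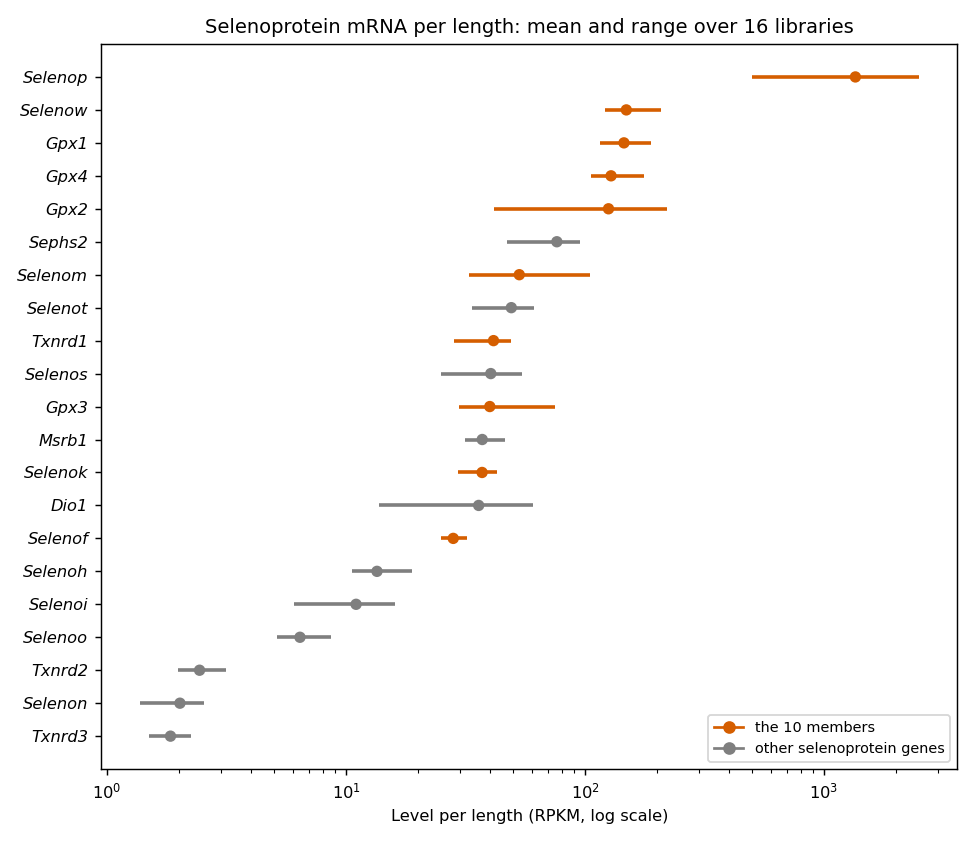
Level per exon length in RPKM on a log axis for the 21 selenoprotein genes that passed the filter, with the mean as a point and the range over 16 libraries as a line, the 10 members in orange and the others in grey. Selenop, at a mean of 1353 RPKM, lies above every other gene. Selenom ranges from 32.7 to 105 RPKM, and the lines of Selenop (499 to 2486 RPKM), Gpx2 (41.6 to 220 RPKM) and Dio1 (13.7 to 60.6 RPKM) are longer on the log axis.

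Together the 24 selenoprotein genes took 0.428% to 0.882% of the counts of a library (median 0.591%), and without Selenop 0.203% to 0.281%. The 10 members made up 84.2% to 92.6% of selenoprotein counts. Weighting each RPKM by the number of selenocysteine codons in the mRNA, Selenop accounted for 81.5% to 96.4% of these codons (median 92.8%). This share describes mRNA and says nothing of how many codons were translated.

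Selenom encodes a thioredoxin-like protein of the endoplasmic reticulum. The gene lies at chr11:3514684-3517351 on the plus strand of GRCm38, and its selenocysteine codon at chr11:3516273-3516275. In the 4 Control-STAM-nonINS libraries it stood at 145, 102, 151 and 155 CPM. In the 6 Control-STAM-INS libraries it ranged from 48.4 through a median of 59.3 to 73.8 CPM, and in the 6 ieIRKO-STAM-INS libraries from 49.5 through 55.5 to 65.8 CPM. Every insulin-treated library of either genotype lay below the lowest untreated library. The mean was 138 ± 24.5 CPM (SD, n = 4) for Control-STAM-nonINS mice. It was 60.4 ± 10.03 CPM (SD, n = 6) for Control-STAM-INS mice, a level 2.29-fold lower (log2 fold change -1.19, standard error 0.13), and 57.1 ± 6.46 CPM (SD, n = 6) for ieIRKO-STAM-INS mice. Against the same untreated libraries, ieIRKO-STAM-INS was lower by 2.42-fold (log2 fold change -1.28, standard error 0.13). These untreated libraries enter both comparisons, so the 2 values are not independent.

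**Figure D2:**
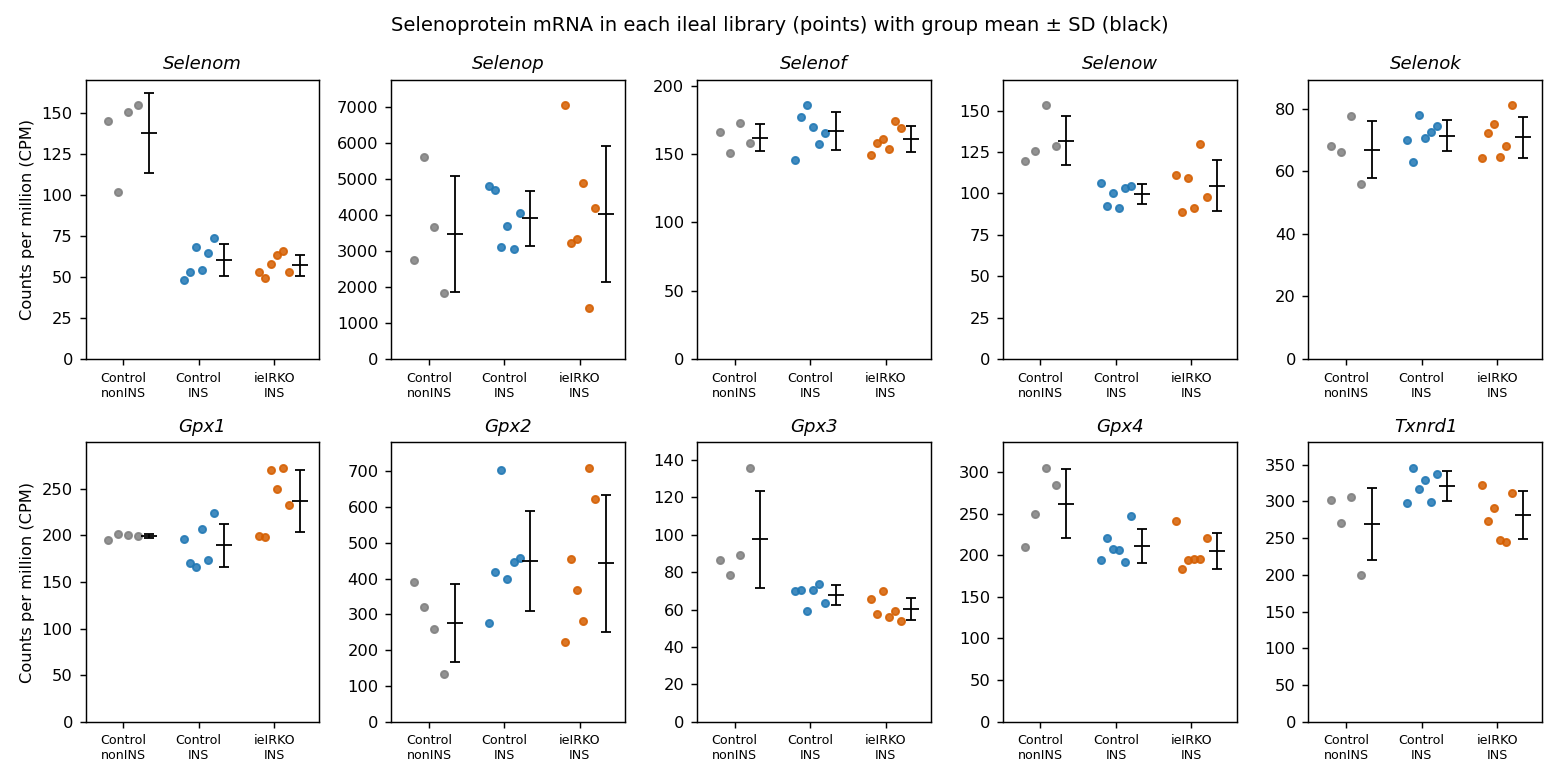
CPM of each of the 10 genes in 16 libraries, in 3 groups from left to right (Control-STAM-nonINS, Control-STAM-INS, ieIRKO-STAM-INS), with the group mean ± SD in black and each axis starting at 0. Selenom is at 102 CPM or above in the 4 untreated libraries and at 73.8 CPM or below in the 12 insulin-treated ones, and Selenop, with 1418 to 7065 CPM in ieIRKO-STAM-INS, spreads most within a group.

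Markers of enteroendocrine cells, the hormone-secreting cells of the gut epithelium, were lower in the same libraries. Of 5 such markers, 4 were lower with insulin in the control genotype by edgeR's quasi-likelihood test with Benjamini-Hochberg adjustment: Chga (log2 fold change -0.92, adjusted p = 0.0197), Chgb (-1.84, adjusted p = 0.0054), Gcg (-0.95, adjusted p = 0.0398) and Neurod1 (-1.15, adjusted p = 0.0173), with Cck at -0.39 (adjusted p = 0.356). Their summed level was 122 to 256 CPM in Control-STAM-nonINS, 47.2 to 113 CPM in Control-STAM-INS and 54.9 to 117 CPM in ieIRKO-STAM-INS. None of the 5 was at 0, and their part in the Selenom difference was not tested. Fewer cells of a type and less RNA per cell cannot be told apart in whole-wall RNA. Of the markers of other cells, Cd163 of macrophages (log2 fold change -0.70, adjusted p = 0.0481) and Cela1 (-0.89, adjusted p = 0.0042) were also lower with insulin. Cela1 was listed as a pancreatic acinar marker, but of the other 4 acinar markers Cpa1 and Pnlip were at 0 and Prss2 and Ctrb1 were too low to be tested. Higher were Itln1 (1.39, adjusted p = 0.00615) and Defa24 (0.81, adjusted p = 0.0123), which are 2 of 5 Paneth cell markers, and Trpm5 of tuft cells (0.59, adjusted p = 0.0334). The summed Paneth cell markers ranged from 3587 to 6106 CPM in Control-STAM-nonINS and from 5033 to 9084 CPM in Control-STAM-INS, and the summed macrophage markers overlapped between the groups (99.97 to 198 CPM against 118 to 139 CPM).

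**Figure D3:**
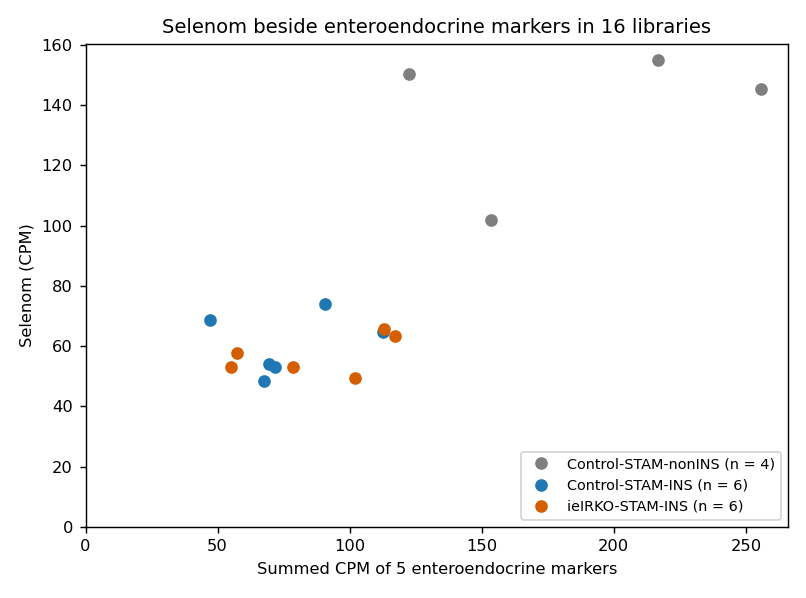
Selenom CPM against the summed CPM of the 5 enteroendocrine markers, both on linear axes from 0, 1 point a library, coloured by group. The untreated libraries lie above the treated ones on both axes, though on the marker axis Control-STAM-nonINS replicate 3 does so narrowly, at 122 CPM against at most 117 CPM. The libraries of Control-STAM-INS and ieIRKO-STAM-INS share 1 region below 80 CPM of Selenom.

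The genes whose profile over the 16 libraries was most like that of Selenom were not selenoproteins. Among 9440 genes with a mean of at least 10 CPM, the root mean square distance of the centred log2 CPM from that of Selenom was smallest for Ankrd13b (0.201), Gstt1 (0.204), Pmm1 (0.222), Emp2 (0.233) and Csnk1e (0.235), against a median of 0.609. Their own log2 fold changes with insulin were -1.27, -1.05, -0.86, -1.07 and -0.97, in that order. The genes were picked for a profile that already holds the Selenom difference with insulin, so nothing is read from these values. Within the family, Gpx3 came nearest at 0.378, rank 154, followed by Selenow at 0.428, rank 367.

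Of the other endoplasmic reticulum members, neither differed from the untreated level by more than 0.1 on the log2 scale. Selenof, which binds the enzyme that checks glycoprotein folding, stood at 166, 151, 173 and 158 CPM in Control-STAM-nonINS, at 146 to 186 CPM in Control-STAM-INS and at 149 to 174 CPM in ieIRKO-STAM-INS (log2 fold change with insulin 0.04, standard error 0.08). Selenok, a membrane protein of the reticulum, stood at 68.1, 66.2, 77.8 and 55.8 CPM without insulin, at 63.0 to 78.2 CPM with it and at 64.3 to 81.2 CPM in ieIRKO-STAM-INS (log2 fold change with insulin 0.09, standard error 0.10). The groups overlapped for both genes. Selenof was the steadiest of the 10 members across all 16 libraries, with a standard deviation of 1.91 RPKM around 28.1 RPKM.

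Selenow, a small cytosolic thioredoxin-like protein abundant in muscle, was 1 of 3 members whose groups did not overlap in the insulin comparison. It stood at 119.7, 126, 153 and 128 CPM in Control-STAM-nonINS, and from 91.3 through a median of 102 to 106 CPM in Control-STAM-INS (log2 fold change -0.40, standard error 0.10). In ieIRKO-STAM-INS it ranged from 88.9 to 129.96 CPM, and replicate 5, at 129.96 CPM, reached into the untreated range.

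Of the secreted members, Gpx3 had groups that did not overlap and Selenop had groups that did. Gpx3, the extracellular glutathione peroxidase of plasma, stood at 86.5, 78.7, 89.0 and 136 CPM without insulin, from 59.4 through 70.1 to 73.5 CPM in Control-STAM-INS, and from 54.0 through 58.2 to 69.7 CPM in ieIRKO-STAM-INS. All 12 insulin-treated libraries lay below the 4 untreated ones. The log2 fold change with insulin was -0.52 (standard error 0.12), and without Control-STAM-nonINS replicate 4, at 136 CPM, it was -0.32. Selenop stood at 2768, 5633, 3673 and 1849 CPM without insulin, from 3055 through 3891 to 4818 CPM in Control-STAM-INS, and from 1418 through 3767 to 7065 CPM in ieIRKO-STAM-INS. The highest library was 4.98 times the lowest within ieIRKO-STAM-INS and 3.05 times within Control-STAM-nonINS, and the groups overlapped. The log2 fold change with insulin was 0.17 with a standard error of 0.35, and it lay between -0.04 and 0.51 over 17 settings, the reported one included. Hepatocyte markers were low in all groups, with Alb at 0 to 8.36 CPM.

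Among the intracellular glutathione peroxidases, Gpx2 had the largest difference above 0. Gpx2 stood at 390.3, 322, 259 and 134 CPM without insulin, from 275 through 432 to 704 CPM in Control-STAM-INS, and from 223 through 411 to 709.8 CPM in ieIRKO-STAM-INS. The groups overlapped, and the log2 fold change with insulin was 0.70 with a standard error of 0.35. It lay between 0.47 and 0.92 over 17 settings, the reported one included. The lowest library, at 134 CPM, was Control-STAM-nonINS replicate 4, which stood apart from its group as given above. Gpx1, which reduces hydrogen peroxide in the cytosol, was within 196 to 201 CPM in the 4 untreated libraries and within 166 to 224 CPM in Control-STAM-INS (log2 fold change -0.07, standard error 0.11). Gpx4, which reduces lipid peroxides in membranes and guards against ferroptosis, stood at 209.9, 249, 305 and 284 CPM without insulin, at 192 to 247 CPM in Control-STAM-INS and at 183 to 241 CPM in ieIRKO-STAM-INS. Its log2 fold change with insulin was -0.31 (standard error 0.11), and the lowest untreated library lay inside the range of the treated ones. Gpx2 overlaps Fntb on the other strand, which stood at 17.9 to 27.9 CPM, and whether the counting used strand is not given in the sources used here.

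Txnrd1 encodes the cytosolic thioredoxin reductase, which returns thioredoxin to its reduced form with NADPH. It stood at 302, 271, 306 and 200.3 CPM without insulin, at 298 to 346 CPM in Control-STAM-INS and at 244 to 323 CPM in ieIRKO-STAM-INS (log2 fold change with insulin 0.25, standard error 0.12). The groups overlapped, and without Control-STAM-nonINS replicate 4, at 200.3 CPM, the log2 fold change was 0.13.

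Counted together, 5 of the 10 members lay above and 5 below the untreated level in Control-STAM-INS. Their median log2 fold change was -0.01, beside -0.004 over the 15267 genes tested. Of the 10, 3 (Selenom, Selenow and Gpx3) had groups that did not overlap, all lower with insulin, where 10.6% of all tested genes had groups that did not overlap and 6.23% lower ones. Because these members were chosen with the comparison in view, nothing is read from that count. Between the ieIRKO-STAM-INS and the Control-STAM-nonINS libraries, 2 members (Selenom and Gpx3) did not overlap, both lower, beside 8.56% of all tested genes and 4.76% lower ones.

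The comparison of ieIRKO-STAM-INS with Control-STAM-INS addresses whether the receptor label mattered under insulin, and it is the comparison in which the members were tested, although it shares the Control-STAM-INS libraries with the insulin comparison. Of 5 Paneth cell markers, 4 fell between these groups, with a summed level of 5033 to 9084 CPM in Control-STAM-INS and 1704 to 2862 CPM in ieIRKO-STAM-INS, and their part in the values that follow was not tested. None of the 10 members passed an adjusted p of 0.05 by edgeR's quasi-likelihood test, beside 34 of all tested genes, 0.223%. At an unadjusted p under 0.05, 1 member (Gpx1) passed, beside 11.3% of all tested genes, and DESeq2 called 0 of the 10 at an adjusted p of 0.05. No member had groups that did not overlap, beside 0.845% of all tested genes. The median log2 fold change was -0.03, beside 0.02 over all tested genes, with 3 members above and 7 below 0.

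Gpx1 had the largest difference of the 10 between the insulin-treated genotypes. It ranged from 166 through a median of 184 to 224 CPM in Control-STAM-INS and from 198 through 241 to 272 CPM in ieIRKO-STAM-INS, where 4 of 6 libraries lay above all of Control-STAM-INS. On the log2 scale it differed by 0.32 with a standard error of 0.10 and a 95% interval of 0.13 to 0.52 (adjusted p = 0.29). This difference did not pass the test, and over 19 other settings the adjusted p ran from 0.114 to 0.882. Without ieIRKO-STAM-INS replicates 2 and 3 the log2 fold change was 0.32 (adjusted p = 0.547).

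For Selenom, the difference between the insulin-treated genotypes was -0.08 on the log2 scale, with a 95% confidence interval of -0.32 to 0.15 (adjusted p = 0.837). An increase of more than 0.15 or a decrease of more than 0.32 thus lies outside the interval. The confidence intervals were about as narrow for Selenow (-0.11 to 0.26), Selenof (-0.20 to 0.09), Selenok (-0.18 to 0.16), Gpx4 (-0.24 to 0.15), Gpx3 (-0.39 to 0.05) and Txnrd1 (-0.39 to 0.02). They were wide for Selenop (-0.57 to 0.65) and Gpx2 (-0.62 to 0.58), whose libraries spread most, so changes of a smaller size were not detectable there. Without ieIRKO-STAM-INS replicates 2 and 3, the log2 fold changes of the 10 members lay between -0.22 and 0.32 and again 0 of 10 passed (adjusted p 0.547 to 0.996).

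**Figure D4:**
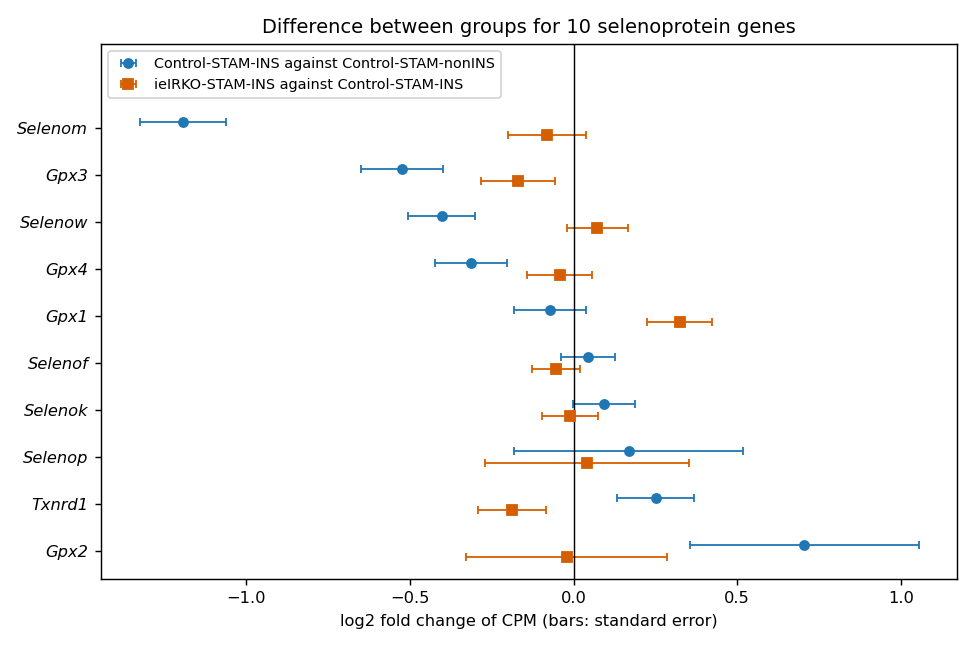
Log2 fold change of CPM with its standard error for the 10 members, in Control-STAM-INS against Control-STAM-nonINS (blue circles) and between the insulin-treated genotypes, ieIRKO-STAM-INS against Control-STAM-INS (orange squares). Selenom lies lowest in the insulin comparison at -1.19 and near 0 between genotypes at -0.08, and the Control-STAM-INS libraries enter both.

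The 14 other selenoprotein genes, the rest of the 24 listed, included 2 that rose with insulin and none that fell. Of these 14, 11 passed the filter, and the deiodinases Dio2 and Dio3 and the testis protein Selenov, with at most 4 counts in a library, did not. Among the 11, 2 passed an adjusted p of 0.05 in the insulin comparison, where 10.5% of all tested genes did and 3.73% were higher. Both encode endoplasmic reticulum proteins, and their selenocysteine codons are shown in the same form as above to set the codon next to the stop in Selenos against the internal one in Selenot.
Selenos (codon 189 of 190): tcatctggcggcTGAaactaa
Selenot (codon 49 of 195): atttgtgtatccTGAgggtaccggcgg

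Selenos, which takes part in the removal of misfolded proteins from the reticulum, stood at 48.7, 42.6, 36.9 and 40.1 CPM in Control-STAM-nonINS and from 52.7 through 65.1 to 68.7 CPM in Control-STAM-INS. The groups did not overlap, and Selenos rose 1.52-fold (log2 fold change 0.60, standard error 0.12, adjusted p = 0.00361 from edgeR), a call made in 17 of 17 other settings. Selenot, a thioredoxin-like oxidoreductase of the reticulum, stood at 156, 150.5, 148 and 116 CPM without insulin and from 166 through 176 to 211 CPM with it, again without overlap. Selenot rose 1.28-fold (log2 fold change 0.36, standard error 0.09, adjusted p = 0.0212), and without Control-STAM-nonINS replicate 4, at 116 CPM, the adjusted p was 0.0656 with a log2 fold change of 0.27. In ieIRKO-STAM-INS, Selenos stood at 54.6 to 80.4 CPM (log2 fold change against Control-STAM-INS 0.07, adjusted p = 0.825). Selenot stood at 164 to 182 CPM (-0.08, adjusted p = 0.752). The markers given beside Selenom, of which those of enteroendocrine cells were lower and Itln1, Defa24 and Trpm5 higher, moved over the same libraries, and their part in these differences was not tested.

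The other 9 tested genes of that list did not pass in the insulin comparison. Dio1, the deiodinase that converts thyroxine to its active form, had the lowest log2 fold change, -0.51 (standard error 0.33, adjusted p = 0.356), and Control-STAM-nonINS replicate 4 stood at 53.0 CPM against 114 to 119 CPM in the other 3. The difference was -0.26 for Selenoo (adjusted p = 0.179), -0.16 for Msrb1, which repairs oxidized methionine (adjusted p = 0.279), and -0.14 for Selenon (adjusted p = 0.59). It lay between -0.04 and 0.12 for Sephs2, Selenoh, Txnrd3, Selenoi and Txnrd2. Between the insulin-treated genotypes, 0 of the 11 passed with either edgeR or DESeq2, and 1 (Msrb1, log2 fold change -0.18, adjusted p = 0.415) had an unadjusted p under 0.05, beside 0.223% of all tested genes at the adjusted and 11.3% at the unadjusted threshold.

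**Figure D5:**
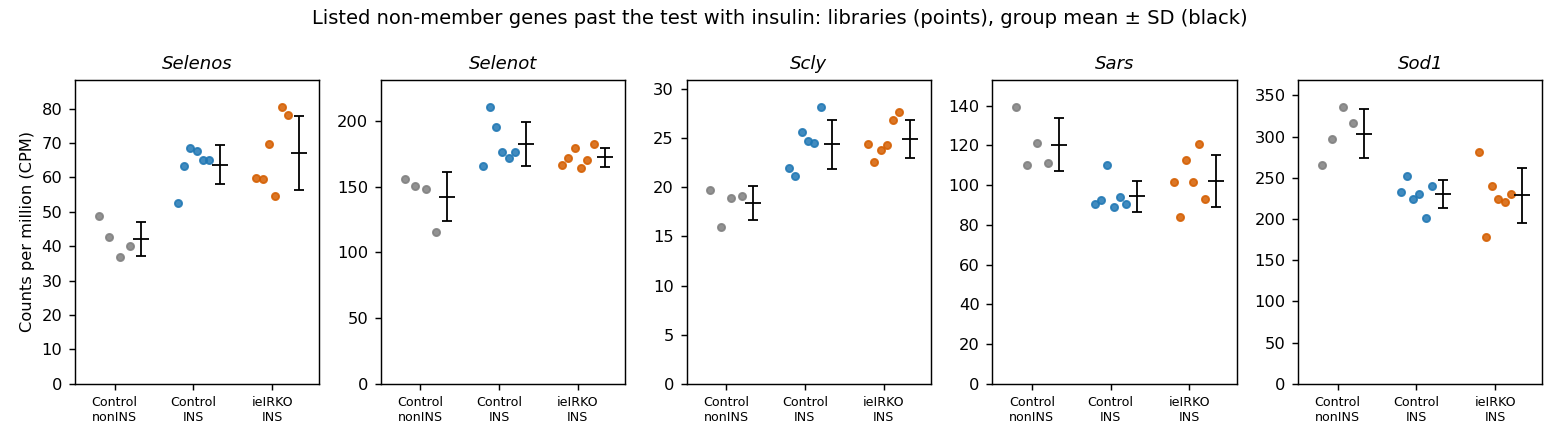
CPM per library, with group mean ± SD in black, in the same group order as before and with axes from 0. The 5 genes are those that passed the test in the insulin comparison among the listed other selenoprotein, selenium handling and partner genes. Selenos, Selenot and Scly are higher in every Control-STAM-INS library than in every Control-STAM-nonINS library, and Sars and Sod1 are lower.

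Of 13 genes that make selenocysteine or handle selenium, 12 were tested, 1 rose and 1 fell with insulin, where 10.5% of all tested genes passed, 3.73% higher and 6.76% lower. Scly, the lyase that recovers selenium from selenocysteine, rose from 19.7, 15.9, 19.0 and 19.1 CPM to between 21.2 and 28.1 CPM (log2 fold change 0.40, standard error 0.10, adjusted p = 0.0138). Sars, the seryl-tRNA synthetase that loads the selenocysteine tRNA with serine and also serves ordinary serine codons, fell from 139, 110.2, 121 and 111 CPM to between 89.1 and 110.0 CPM (log2 fold change -0.35, standard error 0.10, adjusted p = 0.0347). The Sars call is close to the threshold and was lost in 8 of 17 other settings, among them the omission of Control-STAM-nonINS replicate 1 (adjusted p = 0.142), of Control-STAM-nonINS replicate 3 (0.0783) and of each of the Control-STAM-INS replicates 1, 2, 4, 5 and 6 (0.0582 to 0.0686). The median of the 12 was -0.11, and between the insulin-treated genotypes 0 of 12 passed, with 2 at an unadjusted p under 0.05, beside 11.3% of all tested genes. These were Secisbp2, which binds the hairpin that recodes UGA (log2 fold change 0.22, adjusted p = 0.314), and Selenbp1 (-0.26, adjusted p = 0.39).

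The glutathione peroxidases that carry cysteine in place of selenocysteine gave no call. Gpx5 and Gpx6 did not pass the filter. Gpx7 stood at 0.895 to 1.96 CPM without insulin and at 1.98 to 4.82 CPM with it (log2 fold change 0.86, adjusted p = 0.117), and Gpx8 differed by 0.03.

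Among 24 partners of these enzymes in the thioredoxin and glutathione systems, 1 passed in the insulin comparison, beside 10.5% of all tested genes, 6.76% lower. Sod1, the copper and zinc superoxide dismutase that produces hydrogen peroxide from superoxide, fell from 265, 297, 335 and 316 CPM to between 202 and 252 CPM (log2 fold change -0.40, standard error 0.11, adjusted p = 0.0246). Its adjusted p was 0.0895 without Control-STAM-nonINS replicate 3, 0.0557 without Control-STAM-nonINS replicate 4 and 0.0601 without Control-STAM-INS replicate 5. With replicate number added to the model it was 0.0641. Gsr, which regenerates reduced glutathione, stood at 119 to 185 CPM without insulin and at 186 to 298 CPM with it, without overlap and with an adjusted p of 0.0631 (log2 fold change 0.60). With DESeq2 the adjusted p of Gsr was 0.0229. The median log2 fold change of the 24 was -0.03. Between the insulin-treated genotypes, 0 of 24 passed and 6 had an unadjusted p under 0.05, beside 11.3% of all tested genes, among them Slc7a11, the cystine importer, whose 10.5 and 5.79 CPM in ieIRKO-STAM-INS replicates 2 and 3, the libraries with high B cell markers, stood above the 0.195 to 1.49 CPM of the other 14 libraries. Without these 2 libraries, the genotype comparison again gave 0 calls among the 11 other selenoproteins, the 12 selenium handling genes and the 24 partners.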

How the data were processed

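The authors extracted total RNA from the ileal whole wall, prepared directional libraries, sequenced them on a NovaSeq and used CLC Genomics Workbench for alignment to GRCm38. The deposited values are raw read counts per gene, 1 table per library, without normalization. The annotation, the treatment of reads with several matches and the use of strand in counting are not given in the sources used here. Samples were grouped by their GEO labels, and treatment details come from the study's methods.

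Counts were fitted with edgeR 4.0.16 and limma 3.58.1 (R 4.3.3). Genes were kept by filterByExpr (minimum count 10, minimum total 15), which left 15267 of 22872 genes with a count. After TMM scaling, 1 robust quasi-likelihood model was fitted to the 3 groups, and p-values were adjusted by the Benjamini-Hochberg method over all genes tested at a threshold of 0.05. A standard error is the log2 fold change divided by the square root of F, and 95% confidence intervals use the normal quantile. Gene positions, exon lengths and coding bases came from GENCODE M21, which held 97.5% of the names listed. Selenok-ps1, the 1 pseudogene listed under a member's name, had 1 count in 16 libraries.

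The members and gene lists were chosen with earlier results of these data known. The rule for named genes took all 10 members, the other 14 selenoprotein genes, the genes of the other lists that passed in the insulin or genotype comparison or that a clause needed for their role, and the 5 nearest profiles to Selenom. Genes named beside them without passing (Gsr, Gpx7, Gpx8, Secisbp2, Selenbp1 and Slc7a11) were chosen after their values were seen. Marker lists of 13 cell types were summed as CPM. Besides the lists reported, 2 of 5 Paneth cell markers rose with insulin and 4 of 5 fell between genotypes, the 1 of 5 pancreatic acinar markers that could be tested fell with insulin, and none of the enterocyte, goblet, crypt, smooth muscle, fibroblast, B and plasma cell, neuron and glia or hepatocyte markers reported passed in either comparison. 1 marker is not reported here. Alternatives were DESeq2 1.42.0, upper-quartile scaling, no filter, only the groups compared, a replicate block, a B and plasma cell covariate, and leaving out libraries. The fits were tested on simulated data.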

Additional observations from a re-analysis of the deposited data

Results flagged for a closer look

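Within groups of 4 or 6 libraries, 63 sets of CPM values of the 21 tested selenoprotein genes were examined for a library far from the others, by the share of the group's range that its gap to the nearest library took. Of these, 4 exceeded Dixon's 95% critical value, where chance gives about 3.15. Dio1 was low in Control-STAM-nonINS replicate 4, at 53.0 CPM with a gap of 0.919 of the range. Txnrd2 was high in the same library, at 11.7 CPM with a gap of 0.845. This library also stood apart from its group by the chi-square of all its counts, as given above. The number given for chance takes the sets as independent, although all genes share the same libraries. Selenos was low in Control-STAM-INS replicate 1, at 52.7 CPM with a gap of 0.659, and Txnrd3 was low in the same library, at 4.39 CPM with a gap of 0.657.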

How the results depend on the processing

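Counts of called genes moved by more than 1.5 times under few settings, and the cause was not tested. In the insulin comparison, leaving out 1 library gave 824 to 1877 called genes, against 1602 with all libraries (824 without Control-STAM-nonINS replicate 1), 1 to 2 of the other selenoproteins (1 without Control-STAM-nonINS replicate 4), 1 to 2 of the selenium handling genes and 0 to 1 of the partners. The selenium handling genes had 1 call under upper-quartile scaling, and the partners had 0 with the replicate block (Sod1, adjusted p = 0.0641) and 2 with only the groups compared or with DESeq2. Between the insulin-treated genotypes, 29 to 50 genes were called with 1 library left out, 10 with the B and plasma cell covariate and 127 with DESeq2. Between ieIRKO-STAM-INS and Control-STAM-nonINS, 1093 to 2274 were called with 1 library left out, 720 with the covariate, 1038 with only the groups compared and 1270 without ieIRKO-STAM-INS replicates 2 and 3. In the insulin comparison, deviations from the group mean correlated at -0.02 to 0.18 between same-numbered libraries and -0.18 to 0.13 between differently numbered ones. Between genotypes the ranges were -0.02 to 0.17 and -0.21 to 0.23. The labels give no pairing, and so few correlations cannot exclude a weak one. A replicate block left 1397 and 30 calls in these comparisons, with 0 of the 10 members called between genotypes.

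Over 17 settings, the reported one included, the difference with insulin lay between -1.31 and -1.14 on the log2 scale for Selenom, -0.45 and -0.32 for Selenow, -0.61 and -0.32 for Gpx3 and 0.47 and 0.92 for Gpx2. No member was called between genotypes under 20 settings, and the sign of the uncalled difference varied for Selenop (-0.20 to 0.34), Selenow, Selenok, Gpx2 (-0.21 to 0.15) and Gpx4. The order of levels changed with the transcript length used, an alternative chosen after seeing the data.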
